A study of Mus musculus with 18 samples.

Results

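The ionotropic glutamate receptor subunits are the proteins that form the glutamate-gated ion channels of neurons. The 10 subunit genes described here were Gria1, Gria2, Gria3, Gria4, Grin1, Grin2a, Grin2b, Grin3a, Grik1 and Grik2, and the members were all probe sets whose only gene symbol in the array annotation was 1 of these names. Of the 45037 probe sets on the array that are not controls, 22 met this rule. They measured 9 of the 10 genes, out of 18193 genes measured, since no probe set carried Grin1 as its only symbol. Each gene was led by its probe set of highest mean over the 18 arrays. Total RNA of whole retinas was measured in 6 groups of 3 arrays. Plk3-KO retinas came from mice with a knockout of Plk3, which encodes polo-like kinase 3, and WT retinas from their littermates. The knockout line had been crossed to C57Bl/6, the strain given for all groups, and each genotype was sampled at birth (P0), at postnatal day 7 (P7) and in the adult. Values were log2 MAS5 signals, the one-number summary of a probe set on the log2 scale, and a difference of 1 is a doubling.

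Glutamate is the transmitter of photoreceptors, bipolar cells and ganglion cells. AMPA receptors are built from Gria1 to Gria4 and carry fast excitation, and the edited Gria2 subunit keeps calcium out of the channel. NMDA receptors pair the obligatory Grin1 subunit with a Grin2 or Grin3 subunit, and in much of the brain Grin2b precedes Grin2a in development. Kainate receptors contain Grik1 or Grik2, and kainate receptors with Grik1 serve some of the cone bipolar cells that respond to light decrements.

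Some facts of the whole series bear on these genes. The Plk3 probe set, 1434496_at, read 6.1 to 8.2 in Plk3-KO retinas and 3.9 to 7.3 in WT retinas. It measures the 3' end of the mRNA and checks nothing about the deletion. Within an age, arrays correlated at 0.94 to 0.95 at P0, at 0.90 to 0.96 at P7 and at 0.80 to 0.92 in the adult over all probe sets. At P7, Plk3-KO array 2 and WT array 3 had a median of 6.4 and an actin 3' minus 5' difference of 1.6, against medians of 6.8 to 6.9 and differences of 0.8 to 1.1 on the other 4 arrays. In the adult, Plk3-KO array 3 and WT array 3 had medians of 7.2 and 7.0, against 6.3 to 6.5 on the others. The actin difference was 2.7 on adult Plk3-KO array 3 and 1.6 to 1.8 on the other adult arrays. At P0 it was 1.0 to 1.3. P0 and the adult did not overlap, so this measure and age cannot be told apart between them. These 4 arrays stood apart from their groups, and results that rest on them are given with and without them. Of these measures, adult WT array 3 stood apart by its median only. It correlated at 0.85 to 0.92 with the other adult arrays and had an actin difference of 1.6. The tissue label held against its markers: the summed signal of 7 measured rod genes was 13.75 to 14.34 (log2) at P0, 16.51 to 17.35 at P7 and 17.66 to 18.98 in the adult, and that of 6 progenitor genes went from 15.34 to 15.70 at P0 to 9.95 to 10.16 in the adult. The summed signal of 8 amacrine genes was 14.48 to 14.79 at P0 and 14.975 to 15.42 in the adult. That of 7 ganglion cell genes was 14.29 to 14.65 and 15.04 to 15.51. Over the 18 arrays that of 5 lens genes was 6.71 to 17.01. That of 5 pigment epithelium genes was 9.48 to 11.085 at P0, 12.97 to 14.91 at P7 and 15.14 to 16.355 in the adult. The highest P7 value was on Plk3-KO array 2. The part of these sums in the subunit changes with age was not tested. In these bulk samples fewer cells of a type and less RNA per cell cannot be told apart. The study describes its arrays as biological replicates, and the labels do not tie the arrays of a group to animals.

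With all arrays, Grik2 was the only leading probe set to pass a test of age. It fell by 0.93 from P7 to the adult and by 0.93 from P0 to the adult when the genotypes were averaged. Its adult means lay under 7, the minimum used for testing, so it was tested through its P0 and P7 groups. With the actin difference as a covariate neither change passed, and with a minimum of 8 it was not tested. The means of the leading probe sets of Gria2, Gria3, Gria4 and Grin2b were highest at P7 in both genotypes without passing. Among their other probe sets, Gria2 1434146_at, Gria3 1420563_at and Grin2b 1442370_at were highest at P7 in both genotypes as well. Gria2 1453098_at and Gria4 1421351_at were highest at P0 in both, and Gria4 1440891_at was highest in the adult in WT retinas. Of the 4 arrays that stood apart, 3 lay at the edge of their groups for 7 to 9 of the 9 leading probe sets. Grik1 was higher on every P7 and every adult array than on every P0 array, at a level below the minimum used for testing. No leading probe set passed the test between Plk3-KO and WT retinas.

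**Figure D1:**
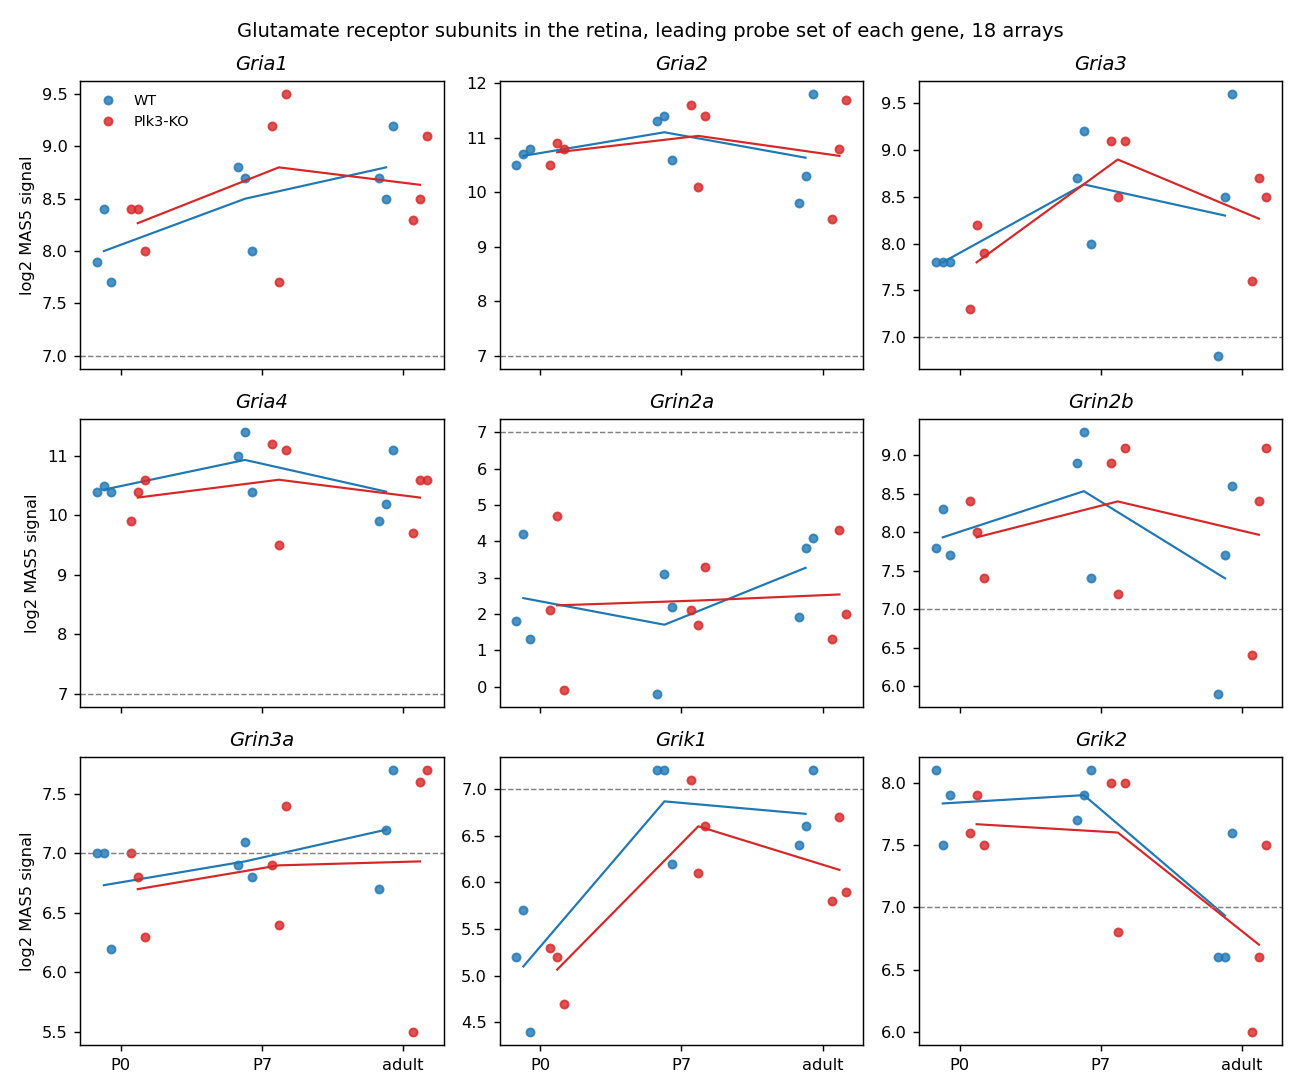
The log2 MAS5 signal (vertical axis, with its own scale in each panel) of the leading probe set of 9 subunit genes at P0, P7 and in the adult. Each point is 1 array, WT in blue and Plk3-KO in red, lines join the means of 3 arrays, and the dashed line marks 7, the minimum of the methods. Grik1 was at 4.4 to 5.7 on the P0 arrays and at 5.8 to 7.2 on the later ones, and Grik2 was lowest in the adult.

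Within WT retinas, limma tested 6 of the 9 leading probe sets from P0 to P7, 7 from P7 to the adult and 7 from P0 to the adult. It called 0 of them in each comparison at an adjusted p under 0.05 (Benjamini-Hochberg over all probe sets tested). Of all probe sets tested, 20.4%, 19.7% and 48.1% were called in these comparisons. In Plk3-KO retinas 6 leading probe sets were tested in each comparison and 0 were called, where 21.2%, 19.2% and 45.3% of all probe sets tested were called. At an unadjusted p under 0.05, 0 leading probe sets passed from P0 to P7 in either genotype, and 1, Grik2, passed in each genotype from P7 to the adult and from P0 to the adult. At that threshold 32.8%, 34.6% and 55.6% of all probe sets tested passed in WT and 32.7%, 32.9% and 52.9% in Plk3-KO retinas. The methods' t-test called 0 of them in all 6 comparisons after Benjamini-Hochberg adjustment, beside 12.5%, 3.09% and 34% of all probe sets tested in WT and 14.5%, 2.65% and 29.7% in Plk3-KO retinas. Averaging the age change over the genotypes, a comparison added after the data had been seen, doubled the arrays behind each age. It called 0 of 6 leading probe sets from P0 to P7, 1 of 7 from P7 to the adult and 1 of 7 from P0 to the adult. The shares of all probe sets called were 36.4%, 37.5% and 62.9%. The median change of the tested leading probe sets was 0.46 from P0 to P7, -0.42 from P7 to the adult and -0.02 from P0 to the adult, beside -0.12, -0.07 and -0.22 over all probe sets tested. Centring each array on its own median moved the median over all probe sets from P0 to the adult to 0.10. On that scale Gria1 and Gria3 passed as risen from P0 to the adult and Grik2 still passed as fallen. There 56.2% of all probe sets tested were called.

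Grik2, a kainate receptor subunit, was the clearest of the subunits. Its leading probe set, 1457683_at, read 8.1, 7.5 and 7.9 on the P0 WT arrays, 7.7, 7.9 and 8.1 at P7, and 6.6, 6.6 and 7.6 in the adult. The Plk3-KO arrays read 7.6, 7.9 and 7.5 at P0, 8.0, 6.8 and 8.0 at P7, and 6.0, 6.6 and 7.5 in the adult. In WT retinas every adult array was below every P7 array, and the adult arrays that overlapped P0 were replicate 3 of each genotype. The share of all probe sets with such a separation in WT retinas was not counted. The change from P7 to the adult was -0.97 in WT and -0.90 in Plk3-KO retinas, each with a standard error of 0.42. Averaged over the genotypes, the change from P7 to the adult was -0.93 (standard error 0.29, limma adjusted p = 0.0208) and that from P0 to the adult -0.93 (standard error 0.29, limma adjusted p = 0.0117). Its adult means, 6.93 in WT and 6.70 in Plk3-KO retinas, lay under 7, so it was tested through its P0 and P7 groups, and with no filter on low values it was called in both comparisons as well. Leaving out 1 array at a time kept the P0 to adult call in 18 of 18 fits and the P7 to adult call in 13 of 18. The latter was lost without array 1 of the adult Plk3-KO retinas, array 1 or 2 of the adult WT retinas, or array 1 or 3 of the P7 Plk3-KO retinas, with a largest adjusted p of 0.056. With the actin difference of each array as a covariate, an alternative chosen after seeing the data, the changes were -1.10 (adjusted p = 0.0597) and -1.12 (adjusted p = 0.0550). The part of RNA quality in the change was not tested further. The other Grik2 probe set, 1425790_a_at, was below 7 on every array and read 4.3 to 6.6 at P0, 2.9 to 6.7 at P7 and 2.2 to 5.8 in the adult.

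The leading probe set of Grik1, the other kainate subunit, lay below the minimum of 7 in the mean of every group and was therefore not tested. This probe set, 1427676_a_at, read 5.2, 5.7 and 4.4 on the P0 WT arrays, 7.2, 7.2 and 6.2 at P7 and 6.4, 6.6 and 7.2 in the adult. The Plk3-KO arrays read 5.3, 5.2 and 4.7 at P0, 7.1, 6.1 and 6.6 at P7 and 5.8, 6.7 and 5.9 in the adult. All 6 P7 arrays were above all 6 P0 arrays, which was so for 6.81% of the probe sets on the array. All 6 adult arrays were above all 6 P0 arrays as well, which was so for 10.5% of the probe sets. The group means were 5.10 at P0 and 6.87 at P7 in WT retinas, and 5.07 and 6.60 in Plk3-KO retinas. The second Grik1 probe set, 1439987_at, read 4.1, 3.7 and 5.5 on the P0 WT arrays, 8.3, 7.6 and 5.7 at P7 and 5.5, 5.2 and 9.1 in the adult. In Plk3-KO retinas it was 1.7, 0.7 and 4.4 at P0, 8.6, 0.5 and 8.4 at P7 and 6.3, 6.0 and 9.7 in the adult. It exceeded 7 in the mean of the P7 WT and the adult Plk3-KO groups only, so it entered a test through the group where it was high, and no test of it is read. The lowest P7 array and the highest adult arrays were among those that stood apart. The summed signal of 5 measured bipolar cell genes was 10.56 to 10.995 at P0, 12.43 to 13.28 at P7 and 14.08 to 14.69 in the adult, and its part in the Grik1 values was not tested.

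The AMPA receptor genes were measured well above the minimum. Gria1 (1448972_at) read 7.9, 8.4 and 7.7 on the P0 WT arrays, 8.8, 8.7 and 8.0 at P7 and 8.7, 8.5 and 9.2 in the adult. In Plk3-KO retinas it read 8.4, 8.4 and 8.0 at P0, 9.2, 7.7 and 9.5 at P7 and 8.3, 8.5 and 9.1 in the adult. Every WT adult array was above every WT P0 array, while the Plk3-KO ages overlapped. How common such a separation was over all probe sets was not counted. The averaged change from P0 to the adult was 0.58 with a 95% interval of -0.01 to 1.18 (adjusted p = 0.0801 in limma).

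Gria2 (1421970_a_at) read 10.5, 10.7 and 10.8 on the P0 WT arrays, 11.3, 11.4 and 10.6 at P7 and 9.8, 10.3 and 11.8 in the adult. The Plk3-KO arrays read 10.5, 10.9 and 10.8 at P0, 11.6, 10.1 and 11.4 at P7 and 9.5, 10.8 and 11.7 in the adult. The P0 arrays lay close together and the adult arrays ran from the lowest to the highest value of the gene. The averaged change from P7 to the adult was -0.42 with a 95% interval of -1.21 to 0.38. Another Gria2 probe set, 1434146_at, gave a narrower picture. It read 9.6 to 10 on the 6 P7 arrays and 7.8 to 10 in the adult, and it fell by 1.02 from P7 to the adult (standard error 0.27, limma adjusted p = 0.00787). This call was kept in 18 of 18 fits that left out 1 array. The remaining Gria2 probe set, 1453098_at, differed by -0.20 over the same ages, with a 95% interval of -1.24 to 0.84. The 3 Gria2 probe sets had the same direction from P7 to the adult and differed in the call.

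Gria3 (1434728_at) read 7.8 on all 3 P0 WT arrays, 8.7, 9.2 and 8.0 at P7 and 6.8, 8.5 and 9.6 in the adult. In Plk3-KO retinas it read 7.3, 8.2 and 7.9 at P0, 9.1, 8.5 and 9.1 at P7 and 7.6, 8.7 and 8.5 in the adult. Within each genotype every P7 array was above every P0 array. The share of all probe sets separated in this way was not counted, so this is a description of the values only. The averaged change from P0 to P7 was 0.97 (standard error 0.37) and did not pass, with a limma adjusted p = 0.0529. The second Gria3 probe set, 1420563_at, rose by 1.00 (standard error 0.36, limma adjusted p = 0.0387). That call was kept in 9 of 18 fits that left out 1 array. It was lost without P7 Plk3-KO array 1 or 3, P7 WT array 1 or 2, P0 Plk3-KO array 1 or 3, or any 1 of the 3 P0 WT arrays.

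Gria4 (1435722_at) read 10.4, 10.5 and 10.4 on the P0 WT arrays, 11, 11.4 and 10.4 at P7 and 9.9, 10.2 and 11.1 in the adult. The Plk3-KO arrays read 9.9, 10.4 and 10.6 at P0, 11.2, 9.5 and 11.1 at P7 and 9.7, 10.6 and 10.6 in the adult. The ages overlapped in each genotype. Its averaged changes were 0.40 from P0 to P7 and -0.42 from P7 to the adult, each with a standard error of 0.30. Another Gria4 probe set, 1440891_at, was above 7 on all 18 arrays and did not have the same order in WT retinas. Its WT means were 8.37 at P0, 8.53 at P7 and 9.10 in the adult, and its Plk3-KO means 8.50, 8.97 and 8.30. From P7 to the adult it changed by 0.57 in WT and by -0.67 in Plk3-KO retinas, and neither change passed. The weakest Gria4 probe set, 1421351_at, was 6.6 to 7.3 at P0 and 2.1 to 7.4 later.

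Of the NMDA receptor genes, Grin2b (1457003_at) had the widest spread of those tested. It read 7.8, 8.3 and 7.7 on the P0 WT arrays, 8.9, 9.3 and 7.4 at P7 and 5.9, 7.7 and 8.6 in the adult. The Plk3-KO arrays read 8.4, 8.0 and 7.4 at P0, 8.9, 7.2 and 9.1 at P7 and 6.4, 8.4 and 9.1 in the adult. The adult arrays ran from 5.9 to 9.1 and took in all 6 P0 arrays. The averaged change from P7 to the adult was -0.78 with a 95% interval of -1.90 to 0.33. A second Grin2b probe set, 1442370_at, differed by -1.72 over these ages (standard error 0.66, limma adjusted p = 0.0516). The other Grin2b probe sets, 1431700_at and 1422223_at, had group means below 7 at every age.

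Grin2a (1421616_at) was at the bottom of the scale, from -0.2 to 4.7 with a mean of 2.42, and its values at this level had no order that could be read. Grin3a (1438866_at), a subunit that lowers the calcium flow through NMDA receptors, was near the minimum, with 6.2 to 7.0 at P0, 6.4 to 7.4 at P7 and 5.5 to 7.7 in the adult. Its averaged change from P0 to the adult was 0.35 with a 95% interval of -0.42 to 1.12. The Grin2a minus Grin2b difference was followed within each array, for the exchange of these subunits known from the brain. Its change, averaged over the genotypes, was -0.83 from P0 to P7, 1.65 from P7 to the adult and 0.82 from P0 to the adult. Grin2a was below the minimum on all 18 arrays, so these differences cannot show an exchange of subunits, and the test planned for them is not read.

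Over the 18 arrays, the genes whose values followed Grin2b most closely were Xkr6, Nav1 and Hecw1, with Pearson r of 0.91, 0.91 and 0.90 among 12108 genes. Those closest to Grin3a were Cbln2, Trap1 and Kcnd3, with r of 0.83, 0.82 and 0.81. None are given for Grin2a, whose values had no order. The arrays share their ages and the arrays that stood apart, so these are descriptions.

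**Figure D2:**
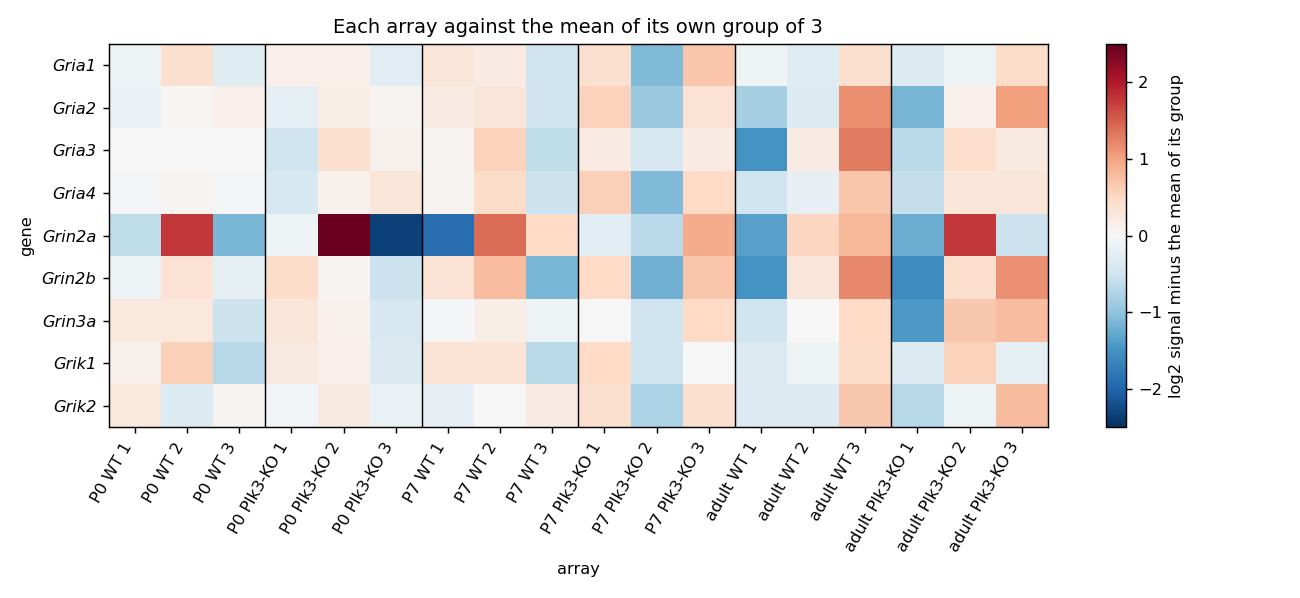
Each cell is the log2 signal of a leading probe set on 1 array minus the mean of that array's group of 3 (colour scale), with genes in rows and the 18 arrays in columns. P7 Plk3-KO array 2 was below the mean of its group for all 9 genes, and adult WT array 3 was above it for all 9.

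The arrays that stood apart moved the subunits together. P7 Plk3-KO array 2 was the lowest of its group for 9 of 9 leading probe sets, and P7 WT array 3 for 7 of 9. Of the 6 leading probe sets tested at P7, it was so for 6 and 5. Over all probe sets tested at P7 the shares were 51.0% and 51.9%. Adult WT array 3 was the highest of its group for 9 of 9 leading probe sets and adult Plk3-KO array 3 for 5 of 9. Of the 6 leading probe sets tested in the adult, it was so for 6 and 4, against 39.1% and 36.0% of all probe sets tested. The standard deviation within groups of the leading probe sets other than Grin2a was 0.18 to 0.52 at P0, 0.37 to 1.02 at P7 and 0.39 to 1.39 in the adult. The medians over all probe sets above the minimum were 0.26, 0.38 and 0.42. On the P7 arrays that stood apart, Plk3-KO first, the summed progenitor genes were 12.21 and 12.79, against 11.35 to 11.77 on the other P7 arrays, the bipolar genes were 12.48 and 12.43 against 13.05 to 13.28, and the rod genes were 17.35 and 17.27 against 16.51 to 16.82. The part of these differences in the subunit values was not tested.

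**Figure D3:**
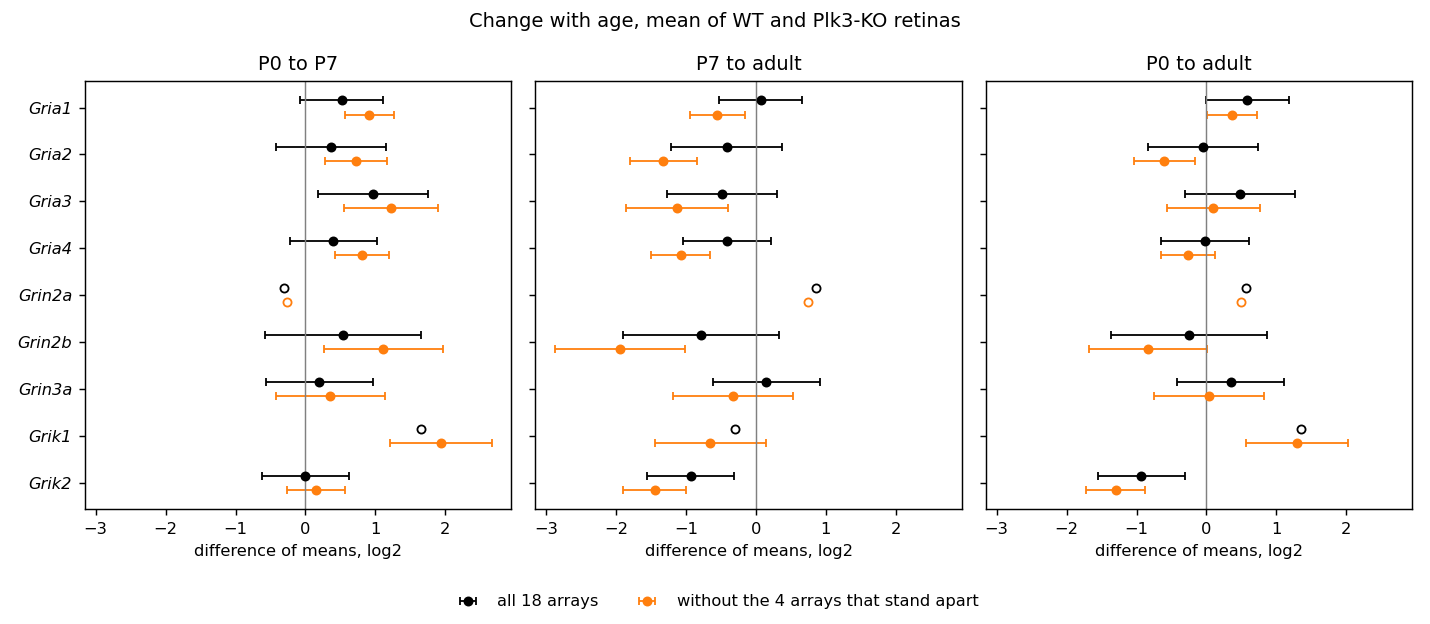
The change of each leading probe set with age, averaged over WT and Plk3-KO retinas, in log2 units (horizontal axis), with 95% intervals from limma. Black points use all 18 arrays and orange points leave out the 4 arrays that stood apart, and open points have no interval because the gene lay below the minimum. Without those arrays Gria2 went from 0.73 above P0 at P7 to 0.60 below P0 in the adult. The arrays left out were mostly the lowest at P7 and the highest in the adult.

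Without these 4 arrays, an alternative set with earlier results of these data known, the subunits that passed rose from P0 to P7 and fell from P7 to the adult. Most of the arrays left out lay at the edge of their groups for most subunits, so leaving them out narrows the spread. At P7 they were mostly the lowest and in the adult mostly the highest, so P7 means go up and adult means go down. For Gria2 the P7 Plk3-KO mean went from 11.03 to 11.50 and the adult WT mean from 10.63 to 10.05. The direction of the calls is thus partly set by the choice of arrays. The calls describe the 14 arrays kept. From P0 to P7 the averaged change was called for 6 leading probe sets, all higher at P7, where 46.5% of all probe sets tested were called. With 2 arrays left in each P7 group, the mean of Grik1 in the WT group was 7.20, so this gene entered the test only through a group where it was high, and its call is no support. The genes called were Gria1 with 0.92 (standard error 0.16, limma adjusted p = 0.00048), Gria2 with 0.73, Gria3 with 1.23, Gria4 with 0.81, Grin2b with 1.12 and Grik1 with 1.94. From P7 to the adult 6 were called, all lower in the adult, where 56.3% of all probe sets were called. These were Gria1 with -0.55, Gria2 with -1.33, Gria3 with -1.13, Gria4 with -1.08, Grin2b with -1.95 and Grik2 with -1.45 (standard error 0.21, limma adjusted p = 7.9e-05). From P0 to the adult 2 were called, Gria2 with -0.60 and Grik2 with -1.30, where 74.5% of all probe sets were called. Centring the 14 arrays on their medians kept the 6 calls from P0 to P7 and, from P7 to the adult, those of Gria2, Gria4, Grin2b and Grik2. From P0 to the adult it kept that of Grik2, and Gria1 passed as risen. The shares of all probe sets called after this centring were 43.9%, 61.8% and 74.9%. Other probe sets of these genes did not all give the same. From P0 to P7 Gria2 1453098_at (0.11), Gria4 1440891_at (0.37) and Gria4 1421351_at (-0.07) did not pass. Gria1 1435239_at (1.33), Gria2 1434146_at (0.64), Gria3 1420563_at (1.49) and Grin2b 1442370_at (1.88) passed. From P0 to the adult Gria1 1435239_at (0.83) and Gria4 1440891_at (0.44) passed as risen. Gria2 1434146_at (-0.81), Gria2 1453098_at (-1.32) and Gria4 1421351_at (-0.72) passed as fallen. Grin2b 1442370_at and Gria4 1421351_at were tested through the age where they were high. From P7 to the adult Gria4 1440891_at changed by 0.08 (95% interval -0.30 to 0.45) and Gria1 1435239_at by -0.50 (95% interval -1.12 to 0.12), and neither passed. Gria2 1434146_at and 1453098_at fell by 1.45 and 1.43, Gria3 1420563_at fell by 1.2 and Grin2b 1442370_at fell by 2.93.

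The genotypes taken apart gave a like picture on the 14 arrays, with the same limit. In WT retinas Gria1, Gria4 and, tested through its P7 group, Grik1 rose from P0 to P7, where 31.6% of all probe sets were called, and Gria2, Gria3, Gria4, Grin2b and Grik2 fell from P7 to the adult, where 44% were called. In Plk3-KO retinas Gria1, Gria3 and Gria4 rose from P0 to P7, beside 30.3% of all probe sets called, and Gria1, Gria2, Gria4 and Grik2 fell from P7 to the adult, beside 37.2%. From P0 to the adult Gria1 was higher and Grik2 lower in WT retinas, beside 65.9% called, and Grik2 was lower in Plk3-KO retinas, beside 62.2%. A gene called in 1 genotype and not in the other is not thereby shown to differ between them.

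The promoter sequences of Gria2, Gria4 and Grik2 are shown because they are the members with a measured probe set that the promoter table held. RefSeq promoters of build GRCm38.p6 were matched for 4 of the 10 genes. Each run is the 250 bases before 1 annotated start on the minus strand, 5' to 3', with CG pairs in capitals, at chr3:80802836-80803085 for Gria2, chr9:4796235-4796484 for Gria4 and chr10:49788755-49789004 for Grik2.
Gria2: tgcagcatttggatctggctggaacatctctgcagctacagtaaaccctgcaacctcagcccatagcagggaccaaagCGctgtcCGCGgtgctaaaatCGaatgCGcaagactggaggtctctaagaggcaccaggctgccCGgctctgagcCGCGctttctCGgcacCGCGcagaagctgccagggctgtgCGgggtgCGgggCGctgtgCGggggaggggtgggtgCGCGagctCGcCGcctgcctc
Gria4: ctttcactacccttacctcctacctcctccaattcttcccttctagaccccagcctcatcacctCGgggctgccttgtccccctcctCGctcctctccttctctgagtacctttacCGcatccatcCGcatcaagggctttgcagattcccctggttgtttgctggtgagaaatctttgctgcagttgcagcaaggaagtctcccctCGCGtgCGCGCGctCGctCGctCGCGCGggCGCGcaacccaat
Grik2: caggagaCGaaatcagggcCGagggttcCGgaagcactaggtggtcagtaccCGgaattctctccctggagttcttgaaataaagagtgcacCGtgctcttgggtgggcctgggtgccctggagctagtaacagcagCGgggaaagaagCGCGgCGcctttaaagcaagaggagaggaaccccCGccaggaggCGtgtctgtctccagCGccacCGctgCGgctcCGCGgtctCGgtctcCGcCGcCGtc
The Gria2 run holds 19 CG pairs, the Gria4 run 16 and the Grik2 run 20, where the median over 32851 promoters of the same length is 6, and 19.7%, 25.4% and 17.9% of all promoters hold at least as many. GGGCGG, the GC box, is on neither strand of the 3 runs and is held by 32.7% of all promoters. TATAAA is on neither strand of them and is held by 12.4% of all promoters. These letters describe the windows only, and no value of these arrays bears on a factor bound there.

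Plk3-KO and WT retinas were compared to see whether the loss of the kinase shifted the subunits. Of the leading probe sets, 6 were tested at each age and 0 were called by limma at P0, P7 or in the adult, where 0% of all probe sets were called. At an unadjusted limma p under 0.05, 0 leading probe sets passed at any age, beside 0.376% of all probe sets at P0, 0.575% at P7 and 4.8% in the adult. The methods' t-test also called 0 after Benjamini-Hochberg adjustment. The paper's methods take a t-test p under 0.05 and name no adjustment, and the t-test at that threshold is not given here. Grin2a and Grik1, not tested for their low signal, differed as Plk3-KO minus WT by -0.20 and -0.03 at P0. At P7 they differed by 0.67 and -0.27, and in the adult by -0.73 and -0.60. The Plk3-KO minus WT differences of the tested leading probe sets ran from -0.17 to 0.27 at P0. At P7 these ran from -0.33 to 0.30, and in the adult from -0.27 to 0.57. Their 95% intervals reached from -1.58 to 1.58 at P0, from -1.71 to 1.44 at P7 and from -1.35 to 2.14 in the adult. These outer limits were those of Grin2b, apart from the lower adult limit, which was that of Grin3a. With 3 arrays a group the width differed between genes, and that of Gria1 at P0 was -0.57 to 1.11. Each interval used 1 variance for all ages. The standard deviation of Grin2b within groups was 0.42 at P0, 1.02 at P7 and 1.39 in the adult. Its P0 interval thus carried the spread of the later ages. The mean over the ages was narrower, with differences of -0.23 to 0.14 and intervals within -0.77 and 1.05, again with 0 of 7 called and 0% of all probe sets called. The change from P0 to the adult differed between the genotypes by -0.43 to 0.57, with 0 of 7 called and 0% of all probe sets called. Among the other probe sets of these genes, 1 had an unadjusted p under 0.05 in the adult. It was Gria4 1440891_at, which read 8.5, 9.0 and 7.4 in Plk3-KO and 8.8, 9.2 and 9.3 in WT retinas (limma adjusted p = 0.977).

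**Figure D4:**
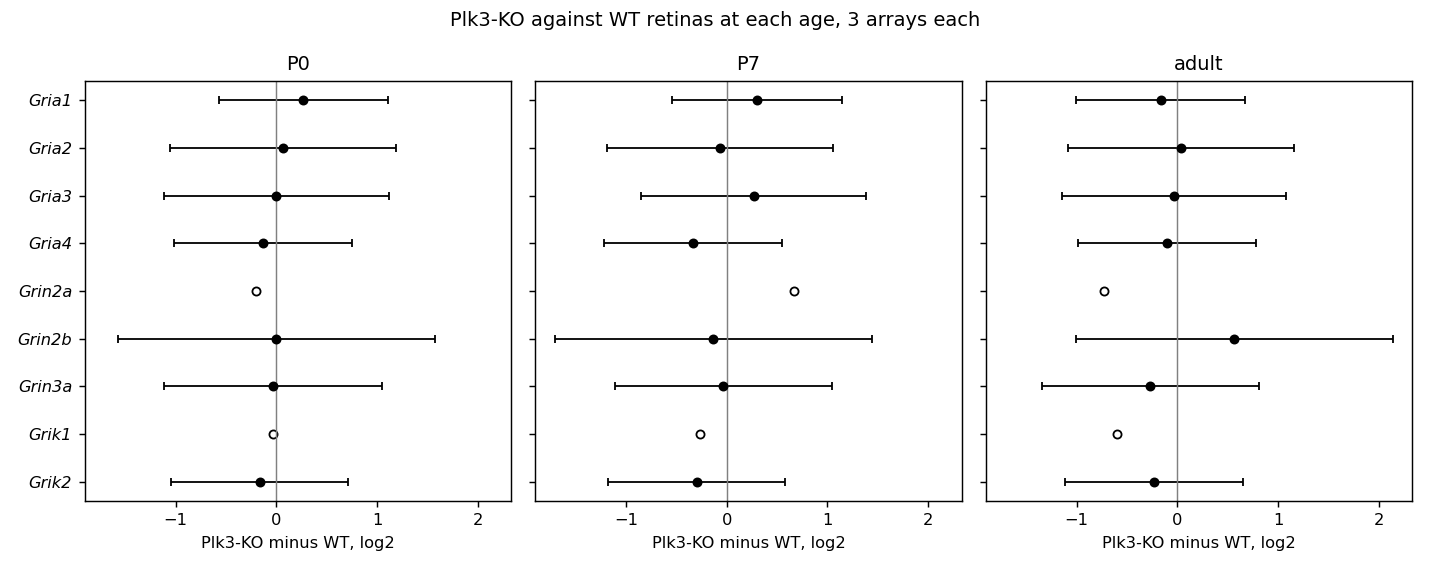
The Plk3-KO minus WT difference of each leading probe set at P0, P7 and in the adult in log2 units (horizontal axis), from 3 arrays a group. Lines are 95% intervals from limma, and open points have no interval because the gene lay below the minimum. All intervals drawn include 0.

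Genes that act beside these subunits were described from P0 to the adult, where 48.1% of all probe sets tested were called in WT and 45.3% in Plk3-KO retinas. Of 8 further ionotropic subunits, 4 were tested in WT retinas from P0 to the adult, with 1 risen and 1 fallen. Grin2d, an NMDA receptor subunit, rose by 2.07 (standard error 0.30) and Grik3, a kainate receptor subunit, fell by 2.40 (standard error 0.39). In Plk3-KO retinas the changes of these genes were 2.17 and -2.57. The mean of Grin2d was 6.80 on the P0 WT arrays, 7.67 at P7 and 8.87 in the adult, and that of Grik3 was 8.73, 8.17 and 6.33. Each was below the minimum at P0 or in the adult, so it was tested through the age where it was high. The sizes are therefore not firm.

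Of 12 auxiliary subunits, which steer the trafficking and gating of the receptors, 11 were tested in WT retinas, 3 rose and 2 fell. By the naming rule these included Shisa9, with means of 4.10 at P0 and 8.27 in the adult, and Cacng8, with 7.2 and 4.6. Each was below the minimum at 1 of the ages, so the sizes are not firm, and in Plk3-KO retinas Cacng8 did not pass (-1.27, limma adjusted p = 0.106). Of 16 postsynaptic scaffold and kinase genes 14 were tested, 7 rose and 1 fell, from Camk2a (2.97), a kinase that acts on AMPA receptors, to Grip1 (-0.77), a scaffold that binds them. Of 8 metabotropic receptors 6 were tested, 3 rose and 1 fell, with Grm8 at 2.73 and Grm3 at -1.37. Of 7 glutamate transporters 6 were tested, 4 rose and 1 fell. The vesicular transporter Slc17a7, which loads glutamate into the vesicles of photoreceptors and bipolar cells, rose by 5.90, and Slc1a3, the uptake carrier of Müller glia, fell by 0.80. Of the 3 RNA editing genes, 2 rose. They were Adarb1 (2.33), the enzyme that edits Gria2 mRNA, and Adar (1.00). Camk2a, Grm8 and Slc17a7 had P0 WT means of 6.37, 6.40 and 6.53, and Grm3 had an adult WT mean of 6.77. These genes too were tested through the age where they were high, and their sizes are not firm. The counts of the lists include such genes. The medians of the tested genes were 0.43 for the further subunits, 0.57 for the auxiliary subunits, 0.65 for the scaffolds, 1.43 for the metabotropic receptors, 1.58 for the transporters and 1.00 for the editing genes, beside -0.20 over all probe sets tested. In Plk3-KO retinas 1 of 3 tested further subunits rose and 1 fell, as did 3 and 1 of 10 auxiliary subunits, 6 and 3 of 14 scaffold and kinase genes, 2 and 0 of 6 metabotropic receptors, 5 and 1 of 6 transporters and 1 and 0 of 3 editing genes. Between the genotypes 0 genes of these lists were called at any age. Centring the arrays moved the median over all probe sets from P0 to the adult to 0.17 in WT retinas, so changes are best read against that shift.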

How the data were processed

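The authors deposited MAS5 signals on the log2 scale, from Affymetrix GeneChips of the mouse genome. Retinal RNA was amplified and hybridised to 18 arrays, and background adjustment and normalization were done by the authors with Mas5 in the Affy package of R. Probe sets were named by the platform annotation, whose build the sources used here do not name. No normalization was added, and 64 control probe sets were left out of 45101. Embryonic arrays were not analysed here.

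Groups followed the sample titles. In R 4.3.3 with limma 3.58.1, 1 mean per age and genotype was fitted to all 18 arrays over the probe sets with a mean above 7, the minimum of the methods, in any group, with variances moderated along the mean (12 residual and 4.07 prior degrees of freedom). A probe set was tested in a comparison if at least 1 of its groups exceeded 7. P-values were adjusted by Benjamini-Hochberg within a comparison, at a threshold of 0.05. With 3 arrays against 3, an exact permutation test cannot go below p = 0.1. The number of arrays limits the precision. The scripts were tested on simulated data.

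The members and the gene lists were chosen with earlier results of these data known. The genes named are the members by leading probe set, their other probe sets, the 3 genes most like Grin2b and Grin3a over the arrays (those for Grin2a, which the rule also asked for, are left out because it was below the minimum), and the largest rise and fall of each list in WT retinas from P0 to the adult. Alternatives covered the normalization, the minimum, a floor at 6, array weights, the variance model, the methods' t-test, a replicate block, all probe sets of a gene, an actin covariate and arrays left out. Marker genes of rods, bipolar cells, amacrine cells, ganglion cells, progenitors, lens and pigment epithelium were summed on the linear scale, 1 probe set a gene. Promoters are those of RefSeq.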

Additional observations from a re-analysis of the deposited data

How the results depend on the processing

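The number of members called between Plk3-KO and WT retinas was 0 under all 13 alternatives and 18 fits without 1 array that gave a value, 153 counts in all. Over all probe sets, array weights called 6.91% in the adult, leaving out the 4 arrays 1.67%, that with centring 0.855%, and leaving out 1 array at most 0.501%. The number of arrays and the low signal of Grin2a and Grik1 limit what can be seen, and the cause of each change below was not tested unless fewer probe sets or arrays entered. With all arrays, 0 members were called in each comparison of ages within a genotype, and 0, 1 and 1 from P0 to P7, from P7 to the adult and from P0 to the adult in the mean of both genotypes. Quantile normalization and centring each gave 1 in WT retinas from P0 to the adult (Gria1), 1 in Plk3-KO retinas from P0 to P7 (Gria3), and 2 from P0 to P7 and 3 from P0 to the adult in the mean of both genotypes. Beside these, quantile normalization called 50.4%, 24.1%, 39.2% and 63.6% of all probe sets tested. Centring called 41.5%, 14.9%, 29.6% and 56.2%. Of all probe sets called in WT retinas from P0 to the adult, 44.2% were higher in the adult as deposited, 60.9% after centring and 49.6% after quantile normalization, and in the mean of both genotypes 41.9%, 57.5% and 47.8%. With no filter, with Grik1 as the added call, the counts were 1 in WT retinas from P0 to P7, 1 in WT retinas from P0 to the adult, and 1 from P0 to P7 and 2 from P0 to the adult in the mean of both genotypes. The shares of all probe sets called there were 9.39%, 26.6%, 19.4% and 40.6%. With a minimum of 8 the counts were 1, 0 and 0 in the mean of both genotypes. The shares of all probe sets called were 41.3%, 41.9% and 66.5%. With a floor at 6 the count from P0 to P7 in that mean was 1, beside 40.8% of all probe sets. Array weights gave 3, 4 and 1 in WT retinas, 4, 3 and 2 in Plk3-KO retinas and 5, 5 and 2 in the mean of both genotypes, where the calls over all probe sets grew too, to 44.4%, 55.2% and 68.5%, to 41.6%, 44.7% and 67%, and to 56.3%, 63.5% and 77.3%. The mean of all probe sets of a gene gave 2 from P0 to P7 and 0 from P7 to the adult, beside 42.3% and 39%. From P0 to the adult it called 1, which was Gria1 in place of Grik2, since the mean of the Grik2 probe sets was under the minimum and was not tested. There 63.7% of all genes tested were called. Without the 4 arrays that stood apart the counts were 3, 5 and 2 in WT, 3, 4 and 1 in Plk3-KO retinas and 6, 6 and 2 in the mean of both. Centred as well, an alternative chosen after seeing the data, they were 5, 2 and 2, then 4, 2 and 2, and 6, 4 and 2. The shares of all probe sets called were 29.4%, 49.1% and 66.8%, then 28.2%, 40.7% and 62.6%, and 43.9%, 61.8% and 74.9%. The actin covariate, also chosen after seeing the data, gave 1, 0 and 0 in the mean of both genotypes. With it 39.8%, 32.2% and 47.5% of all probe sets were called there.

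Without 1 array at a time the counts were 0 to 1 in each comparison of ages within a genotype, and 0 to 2, 0 to 2 and 1 to 2 in the mean of both genotypes. The Grin2a minus Grin2b change, given as a value only, ran from -1.28 to -0.23 from P0 to P7, from 1.08 to 2.07 from P7 to the adult and from 0.37 to 1.42 from P0 to the adult. Gria1 from P7 to the adult, 0.07 with all arrays, was -0.43 with array weights and -0.55 without the 4 arrays. Replicate numbers did not pair the arrays at every age: same-numbered Plk3-KO and WT arrays correlated in their deviations at -0.68 to 0.51. In the adult these were 0.505, 0.09 and 0.47. At P7, Plk3-KO array 2 went with WT array 3 (0.66) and Plk3-KO array 3 with WT array 2 (0.70). A block by replicate number does not cover such pairs. With the replicate block, 1 member, Gria3, passed from P0 to P7 in the mean of both genotypes, and no other count of members changed. There 35% of all probe sets were called. The methods' t-test gave no value for comparisons that combine genotypes or ages.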
